A study of Mus musculus with 12 samples.

Results

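The response to apoptotic cells of macrophages labelled as Kif13b KO was described from 6 of the 12 RNA-seq libraries of the series: 3 libraries labelled KO, without apoptotic cells, and 3 labelled KO with apoptotic cells. They were chosen by their labels alone, and the other 6 libraries are the wild type (WT) macrophages in the same 2 conditions. All were primary bone marrow-derived macrophages derived from tibiae of 6 to 8 week old mice. Where apoptotic cells were given, macrophages were co-cultured for 90 min with 5 apoptotic Jurkat cells per macrophage, Jurkat being a human T cell leukaemia line. The altered genotype is named Kif13b-/- in the design text and a knock down in the sample labels. Serum in the medium is labelled 12, 13 and 14% for the 3 KO libraries and 10, 10 and 11% for the WT libraries without apoptotic cells. No serum percentage was taken from the labels for the libraries with apoptotic cells. The values step from library to library within groups, which puts them in doubt. The 2 conditions were deposited in separate count tables, so condition and table are 1 split of the libraries and cannot be told apart. Every change given below is therefore a difference between those tables as much as between the conditions.

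Macrophages clear dying cells by efferocytosis. Bridging proteins such as GAS6, protein S and MFG-E8 attach to phosphatidylserine on the dying cell and are bound by the receptors MERTK, AXL and TYRO3 or by αv integrins, and RAC signalling then drives engulfment. The engulfed material is digested in lysosomes and its cholesterol leaves the cell through ABCA1 and ABCG1, which LXR receptors induce. KIF13B is a kinesin, a motor protein that carries cargo along microtubules, and the series asks whether it bears on efferocytosis through MERTK.

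Kif13b (chromosome 14, 64647265 to 64809617, plus strand, GRCm38) was measured first, since it checks the labels. Its counts in the libraries labelled KO were 281, 345 and 424, or 19.1, 23.1 and 25.9 counts per 1000000 counts (CPM). With apoptotic cells it had 1697, 1697 and 1721 counts, or 89.1, 88.4 and 89.5 CPM. All 3 libraries with apoptotic cells lay above the 3 without, by 1.97 on the log2 scale (SE 0.10, adjusted p = 1.28e-16, edgeR quasi-likelihood test, n = 3 each). In WT macrophages Kif13b was 34.2 ± 1.51 CPM without and 80.1 ± 2.17 CPM with apoptotic cells (SD, n = 3). The libraries labelled KO with apoptotic cells thus held more Kif13b than any WT library with them (77.6 to 81.5 CPM), against the label. A count summed over all exons cannot separate transcripts of an altered allele from intact ones. Every direction below is drawn between libraries as labelled.

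Total counts were 18351051 to 18770757 in the libraries labelled KO and 17160248 to 17285594 in those with apoptotic cells, over which 18335 to 18520 and 31787 to 32309 gene symbols had a count. The biological coefficient of variation was 0.141 among the 3 libraries labelled KO and 0.0269 among the 3 with apoptotic cells. The chi-square of counts between libraries of a group was 22.1 to 35.7 per degree of freedom without and 1.40 to 1.73 with apoptotic cells. Whether a group's 3 libraries stem from distinct mice or cultures is not stated in the labels, and the p-values then reflect just the variation among these libraries, possibly technical. All 12 macrophage markers had counts in both groups, and their summed level was 37468 to 46322 CPM without and 21160 to 21494 CPM with apoptotic cells. Most of that sum was Lyz2, at 29925, 31290.5 and 24797 CPM without and 10730, 10679 and 10798.5 CPM with them. The markers split: Lyz2, Cd68, Fcgr1, Mertk, Aif1 and Tyrobp fell, Adgre1, Csf1r, Itgam, Cd14 and Mpeg1 rose, and Spi1 was not called. In bulk RNA, fewer cells of a type and less RNA per cell cannot be told apart.

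Of 16810 genes tested, 14503 (86.3%) differed between the 2 groups at an adjusted p under 0.05, 8341 higher and 6162 lower with apoptotic cells. At 2-fold or more, 6267 were higher and 3683 lower. So a large share of any gene list would be called here: the background is 49.6% of genes higher and 36.7% lower, and at 2-fold or more 37.3% higher and 21.9% lower. The median log2 change was 0.32 over all genes and -0.05 over the 13135 protein-coding genes. Of those 13135, 5392 (41.1%) were higher and 5712 lower. All genes tested also hold 2220 processed pseudogenes, of which 2029 were higher, a share partly fixed by the filter on low counts. Counts of list members are set against the shares of all genes, though most members are protein-coding. Against protein-coding genes alone, falls would stand out less and rises more.

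Inflammatory cytokines and enzymes stood among the highest rises. Of 24 tested members 21 rose and 2 fell, 20 of them by 2-fold or more upward and 0 downward, with a median log2 change of 4.71, beside 49.6% of all genes higher and 36.7% lower. Il1b (interleukin-1 beta, a pyrogenic cytokine; chromosome 2, minus strand) was 0.204, 0.268 and 0.183 CPM in the libraries labelled KO and 1348, 1243 and 1233 CPM with apoptotic cells. It was near absent in one group and among the abundant transcripts in the other, a log2 change of 12.47 (SE 0.17, edgeR adjusted p = 8.00e-29). Tnf, the cytokine tumour necrosis factor, was 11.3, 10.4 and 9.27 CPM without and 2052, 2069 and 1897 CPM with apoptotic cells. Its groups were far apart, at a log2 change of 7.61 (SE 0.12, adjusted p = 1.67e-27). Ptgs2 (cyclooxygenase-2, which makes prostaglandin precursors) went from 1.02, 0.602 and 2.26 to 395, 375 and 383 CPM, a log2 change of 8.18 (SE 0.17). Nlrp3, the inflammasome sensor, went from 3.94, 4.68 and 4.39 to 469.5, 465 and 461 CPM, a log2 change of 6.74 (SE 0.11). Acod1, the enzyme that makes itaconate, went from 5.29, 2.54 and 2.99 to 1905, 1845 and 1895 CPM, a log2 change of 9.03 (SE 0.21). In all 3 of these genes each library with apoptotic cells exceeded each library without by far more than the spread within a group.

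Subunits of the interleukin-12 family were at or near 0 in the libraries labelled KO. Il12a had no count there and 20.2, 19.7 and 19.5 CPM with apoptotic cells, which is at least 101-fold higher against 3 counts per library. Il12b, the shared p40 subunit, had 3 counts in all there and 17.6, 14.7 and 18 CPM with apoptotic cells, a ratio of 258 with a 95% counting interval of 88.0 to 1253. Both subunits had at most 2 counts in any library labelled KO. Il6 and Il10 stayed low in both groups, at 0.201 to 0.543 and 1.00 to 1.95 CPM without and 2.29 to 2.94 and 4.17 to 5.36 CPM with apoptotic cells. The 2 members that fell were Il18 (log2 change -0.76) and Gsdmd, the pore-forming gasdermin (-0.42). Csf1, the macrophage growth factor, was not called (-0.17, SE 0.09).

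In the CXC chemokine family 4 of 10 tested members rose and 5 fell, beside 49.6% and 36.7% of all genes. The median log2 change was -0.26, and 0.42 with a correction for length and GC content. The rises were the neutrophil attractants Cxcl1, Cxcl2 and Cxcl3 and the scavenger-type chemokine Cxcl16. Cxcl2 went from 0.747, 1.41 and 1.1 to 1614, 1660 and 1508 CPM, a log2 change of 10.51 (SE 0.17, adjusted p = 2.86e-27). Cxcl3 had 0.339, 0 and 0.427 CPM without and 182, 171 and 158 CPM with apoptotic cells, a log2 change of 9.31 (SE 0.22). Cxcl1 went from 4.48, 3.28 and 3.96 to 556, 579 and 559 CPM, a log2 change of 7.17 (SE 0.14). These 3 lie on chromosome 5, and each was absent or low in every library labelled KO and high in every library with apoptotic cells. Cxcl12, a stromal chemokine, fell from 87.8, 86.1 and 101 to 5.09, 4.69 and 5.46 CPM. In the CC family 8 of 14 rose, a share near that of all genes, and 3 fell, with a median log2 change of 0.995. Ccl3 and Ccl4, macrophage inflammatory proteins, rose by 2.63 and 1.74 on the log2 scale and Ccl6 fell by 2.26.

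The promoters of the 3 CXC chemokines are shown because they moved together and share a motif. The 120 bases before the start of each gene come from RefSeq (GRCm38.p6, plus strand, chr5:90891125-90891244, chr5:90903779-90903898 and chr5:90785981-90786100). Capitals mark a match to an NF-kB motif, which was searched as GGAATTTCC or GGACTTTCC on either strand. Each sequence reads 5′ to 3′ toward the start.
Cxcl1: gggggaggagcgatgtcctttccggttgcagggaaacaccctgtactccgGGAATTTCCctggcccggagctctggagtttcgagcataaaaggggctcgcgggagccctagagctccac
Cxcl2: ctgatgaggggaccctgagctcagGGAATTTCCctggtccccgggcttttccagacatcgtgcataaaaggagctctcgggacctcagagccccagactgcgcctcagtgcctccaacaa
Cxcl3: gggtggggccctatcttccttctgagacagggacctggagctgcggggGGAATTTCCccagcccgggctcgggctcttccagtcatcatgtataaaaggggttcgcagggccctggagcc
The match begins 70, 96 and 72 bases before the start of Cxcl1, Cxcl2 and Cxcl3. Of all 13946 promoters of genes tested that had a sequence, 0.717% held this motif in the 250 bases before the start. By gene, that was 0.896% of the 10934 genes with a sequence. Of 53 members of the inflammation lists that rose by 2-fold or more, 38 had a promoter sequence, and 8 of these 38 genes held it. Only 71.7% of these members and 65.0% of all genes tested had a sequence, so these values are a description only. A match describes letters in this window and is no evidence of binding.

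NF-kB is a transcription factor whose target genes include its own inhibitors, which limit it. Of 21 subunits and feedback inhibitors tested, 20 rose and 1 fell, with a median log2 change of 2.75, against 49.6% and 36.7% of all genes. Nfkbiz, a nuclear co-activator of the IκB family, went from 6.11, 5.76 and 6.22 to 582, 585 and 559 CPM, the largest rise of the list (log2 6.57, SE 0.11, adjusted p = 7.08e-27). Nfkbia, the main cytoplasmic inhibitor, went from 42.5, 33.1 and 33.0 to 676, 663 and 664 CPM. Tnfaip3, the ubiquitin-editing enzyme A20, went from 40.7, 45 and 47.2 to 689, 699 and 673 CPM. The groups were far apart in all 3, at log2 changes of 4.21 (SE 0.10) for Nfkbia and 3.95 (SE 0.09) for Tnfaip3. The subunit genes moved less for Rela (1.22) than for Nfkb1 (3.79). Otulin, a deubiquitinase, was the 1 member that fell (-1.53, SE 0.09).

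Regulators of mRNA decay, which shorten the life of cytokine transcripts, rose in 12 of 14 members and fell in 0. Their median log2 change was 1.73, and the shares of all genes were 49.6% higher and 36.7% lower. Zc3h12a, the endonuclease regnase-1, went from 13.5, 17.5 and 16.4 to 405, 381 and 371 CPM (log2 4.61, SE 0.12). Its relative Zc3h12c rose by 4.79 (SE 0.12), and Zfp36 (tristetraprolin) by 2.23 (SE 0.10). Zfp36l2 and Btg3 were not called.

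Early response genes are switched on within minutes of a stimulus in many cells, and their counts stand beside 49.6% of all genes higher and 36.7% lower. All 11 KLF factors rose, 6 of them by 2-fold or more, with a median log2 change of 1.53, and Klf2 was highest at 3.19 (SE 0.13). Of 14 NR4A and EGR factors 11 rose and 2 fell. Nr4a1, an orphan nuclear receptor, went from 1.36, 1.2 and 1.46 to 39.7, 35.8 and 43.0 CPM, with every library apart (log2 4.87, SE 0.15). Of 16 MAP kinase phosphatases and Sprouty-type inhibitors 12 rose and 2 fell, with Spred1 highest (3.09) and Dusp2 also up (2.36). Of 15 CREB and SIK targets 9 rose and 4 fell, shares near those of all genes. Among 13 genes of the AP-1, ATF3 and MYC list 8 rose and 4 fell, again near those shares: Maff (3.29) and Fosl2 (3.12) rose, while Fos fell by 1.17, Jun by 0.74 and Atf3 by 1.92. Atf3 was abundant without apoptotic cells, at 961, 991 and 897 CPM, and 243, 249 and 259.9 CPM with them. Fos, Jun and Atf3 were lower in every library with apoptotic cells than in any without.

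Promoters of 1 early response gene and 2 NF-kB inhibitors are shown for their motifs, again as the 120 bases before the start from RefSeq (GRCm38.p6). Nfkbia (chr12:55492648-55492767, minus strand) and Tnfaip3 (chr10:19015411-19015530, minus strand) hold the NF-kB motif in capitals, Nfkbia as its reverse complement. Maff (chr15:79347400-79347519, plus strand) holds the cyclic AMP element TGACGTCA in capitals.
Nfkbia: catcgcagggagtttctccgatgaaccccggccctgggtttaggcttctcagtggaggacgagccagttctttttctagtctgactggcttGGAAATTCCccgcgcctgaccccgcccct
Tnfaip3: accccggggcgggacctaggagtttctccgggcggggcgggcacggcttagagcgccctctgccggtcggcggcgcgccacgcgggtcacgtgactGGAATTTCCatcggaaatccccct
Maff: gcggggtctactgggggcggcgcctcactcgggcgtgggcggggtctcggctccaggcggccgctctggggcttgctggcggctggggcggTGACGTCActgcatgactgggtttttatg
Of 45 early response members that rose by 2-fold or more, 37 had a sequence, with 49 promoters among them. In the 250 bases before the start, the cyclic AMP element lay in 5 of the 49 (10.2%), beside 2.45% of all 13946 promoters. The EGR motif GCGGGGGCG lay in 9 (18.4%), beside 4.74%, and the NF-kB motif in 1 (2.04%), beside 0.717%. Neither the AP-1 motif TGACTCA (3.33% of all) nor the serum response motif CCATATTAG (0.0645% of all) lay in any of the 49. In the 100 bases before the start the cyclic AMP element lay in 3 (6.12%), beside 1.84% of all, and the EGR motif in 6 (12.2%), beside 3.14%. With 65.0% of genes tested matched to a promoter, these shares are a description only.

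**Figure D1:**
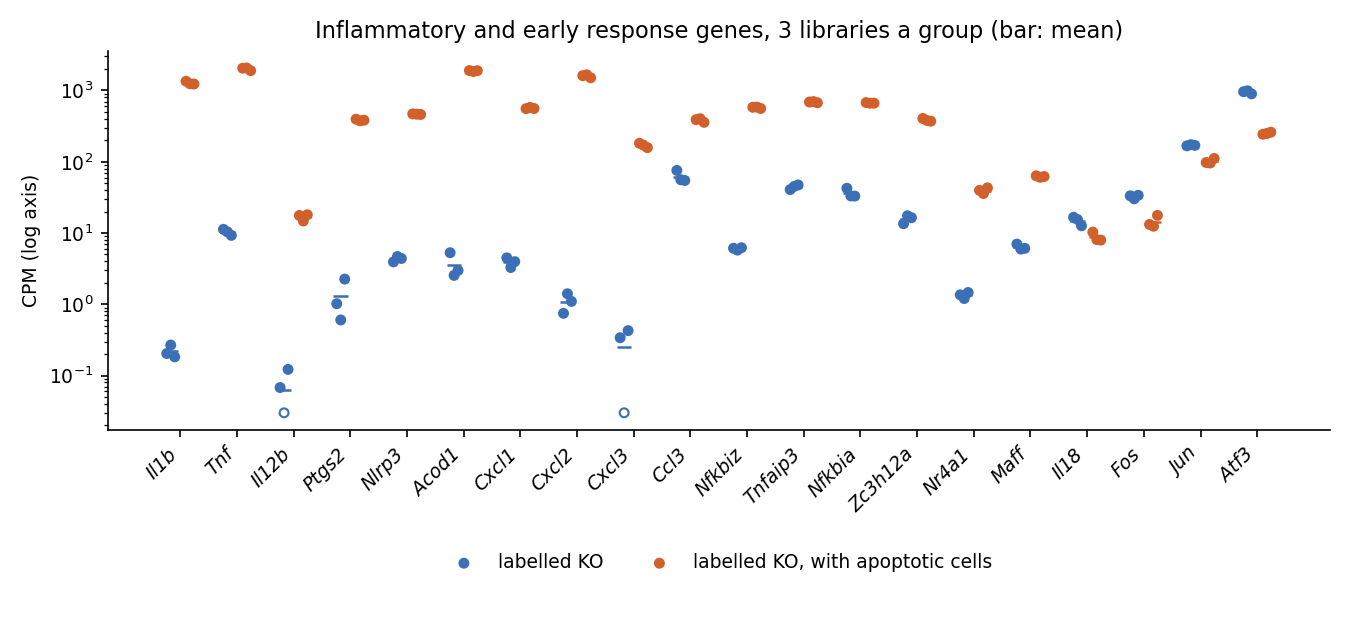
CPM (log axis) of 20 inflammatory and early response genes in the 3 libraries labelled KO (blue) and the 3 labelled KO with apoptotic cells (orange), with a bar at each mean; open circles stand for 0 CPM. Il1b sits at 0.183 to 0.268 CPM without and 1233 to 1348 CPM with apoptotic cells, while Il18, Fos, Jun and Atf3 at the right are lower with them.

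Bridging proteins of efferocytosis mostly fell, while its receptors moved both ways. Of 13 receptors and bridging proteins 9 fell and 4 rose, 7 and 3 of them by 2-fold or more. Their median log2 change was -1.15, against 36.7% of all genes lower and 49.6% higher. Mertk (chromosome 2, 128698956 to 128802894, plus strand) was 58.0, 80.2 and 81.0 CPM in the libraries labelled KO and 43.2, 45.5 and 44.7 CPM with apoptotic cells. It was lower in every library with apoptotic cells, a log2 change of -0.72 (SE 0.11, adjusted p = 1.04e-06). The related receptors Axl and Tyro3 rose by 0.60 (SE 0.09) and 1.2 (SE 0.20), so the family did not move as 1. Their ligands Gas6 (-1.83) and Pros1 (-1.15) both fell. Mfge8, which bridges phosphatidylserine to integrins, was 4902, 5000 and 4496 CPM without and 648, 615 and 613 CPM with apoptotic cells. That is 7.68-fold lower (log2 -2.94, SE 0.09, adjusted p = 5.79e-21), the largest fall of the list. C1qc, a chain of the opsonin C1q, fell from 1812, 2039 and 1297 to 311, 303 and 290.4 CPM, and C1qa and C1qb fell by 2.16 and 2.55 on the log2 scale. Thbs1 (thrombospondin-1) rose from 69.6, 64.9 and 92.5 to 470.5, 438 and 458 CPM, and Itgav, the αv integrin chain, from 40.9, 35.5 and 56.0 to 305, 299.7 and 291 CPM. Thbs1 and Itgav were thus 6.02- and 6.75-fold higher while their partners Itgb3 and Itgb5 were lower (-0.27 and -1.37).

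Of 18 other phosphatidylserine and scavenger receptors 9 were higher and 7 lower, which are near the shares of all genes (49.6% and 36.7%). Olr1, a receptor for oxidised LDL, went from 0.747, 0.402 and 1.40 to 475, 483 and 460.3 CPM (log2 9.08, SE 0.18). Lrp1, a receptor for apoptotic cells and lipoproteins, went from 387, 458 and 564 to 1948, 1937 and 1876 CPM (2.03, SE 0.11), and Marco, a scavenger receptor, rose by 3.06 (SE 0.14). The phospholipid receptor Cd300a fell by 2.05 (SE 0.09) and Cd36, the fatty acid and lipoprotein receptor, by 0.51 (SE 0.10). Of 29 genes of engulfment signalling and LC3-associated phagocytosis 17 fell and 8 rose. Cybb, the catalytic subunit of the phagocyte oxidase, rose from 553, 561 and 681 to 2555, 2567 and 2441 CPM, while Map1lc3b, an LC3 protein, fell from 421, 376 and 338 to 100.1, 105 and 101 CPM. Rac1 fell by 0.57 and the exchange factor genes Elmo1 and Dock1 rose by 0.98 and 0.88.

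Genes for digestion and lipid storage were mostly lower. The shares of all genes were 36.7% lower and 49.6% higher, or 21.9% and 37.3% at 2-fold or more. Of 28 lysosomal and proton pump genes 24 fell and 2 rose, 14 and 0 of them by 2-fold or more, with a median log2 change of -1.01. Ctsl (the protease cathepsin L) fell from 16008, 14503 and 12445 to 3974, 3893 and 3958 CPM. Cd63, a lysosomal tetraspanin, fell from 4223, 4669 and 3033 to 847, 827 and 826 CPM. The 2 that rose were the cholesterol transporter gene Npc1 (0.97) and the transcription factor gene Tfe3 (0.29). Of 17 lipid-associated macrophage genes 15 fell and 2 rose, none of the rises reaching 2-fold, with a median of -0.96. Trem2, a lipid-sensing receptor, was 2479, 3068 and 1915 CPM without and 504, 474 and 494 CPM with apoptotic cells. Of 17 LXR targets and cholesterol efflux genes 10 fell and 5 rose. Abca1 rose from 98.7, 122 and 131 to 411, 384 and 399 CPM (1.76, SE 0.10), whereas Abcg1 fell by 1.76 (SE 0.09) and Apoe, the lipid carrier, from 14651, 14612 and 11860 to 3650, 3280 and 3473 CPM. The 2 cholesterol exporters therefore moved in opposite directions. Of 19 sterol synthesis and LDL uptake genes 10 fell and 6 rose.

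**Figure D2:**
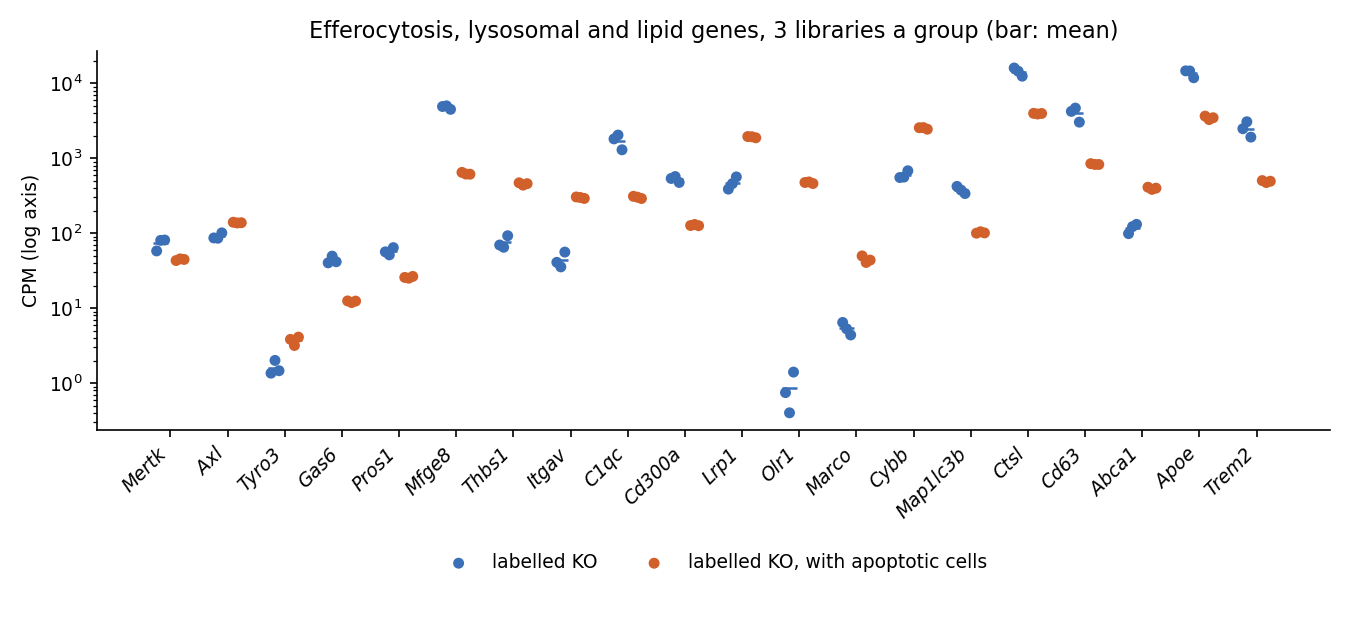
CPM (log axis) of 20 genes of efferocytosis, lysosomes and lipid handling in the 3 libraries labelled KO (blue) and the 3 labelled KO with apoptotic cells (orange), with a bar at each mean. Mertk, Gas6, Pros1, Mfge8, C1qc, Ctsl, Cd63, Apoe and Trem2 are lower with apoptotic cells, and Axl, Thbs1, Itgav, Lrp1, Olr1, Cybb and Abca1 are higher.

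Ribosomal protein and respiratory chain genes fell as a block. Counts here stand beside 36.7% of all genes lower and 49.6% higher, or 21.9% and 37.3% at 2-fold or more. All 32 cytosolic ribosomal protein genes fell by 2-fold or more, with a median log2 change of -2.13, and Rpl7 went from 1568, 1437 and 1313 to 324, 322 and 326 CPM. All 29 nuclear-encoded respiratory chain genes fell, 22 of them by 2-fold or more, with a median of -1.78, and Cox6c went from 359, 343 and 255 to 63.1, 56.5 and 66.2 CPM. Of 13 genes of the mitochondrial genome 2 rose and 5 fell, and reads from such genes took 0.579 to 1.23% of counts without and 1.5 to 1.53% with apoptotic cells. Of 21 glycolysis genes 13 fell and 6 rose: Hk2 (hexokinase 2) rose by 1.93 and Aldoa (aldolase) fell by 1.46. Of 18 arginine, polyamine and itaconate genes 8 rose and 9 fell, with Slc7a2, an arginine transporter, 5.48 higher (SE 0.12).

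Changes moved with exonic length. Among protein-coding genes in 8 groups of near equal size by exonic length, the median log2 change ran from -1.34 in the shortest (204 to 2020 bases) to 1.03 in the longest (9321 to 123179 bases). It rose from each group to the next, and ran from -1.13 to 0.78 in WT macrophages. Gene type moved as well: 2029 of 2220 processed pseudogenes that passed the filter on low counts were higher, with a median of 5.58. A pseudogene could pass through its level with apoptotic cells alone, so that share and that median are partly fixed by the filter. Before any filter, 1779 to 1898 pseudogenes had a count without and 5718 to 5848 with apoptotic cells. Pseudogenes took 0.454 to 0.494% of counts without and 1.94 to 2.16% with apoptotic cells. With length and GC content fitted per library, the median was -1.62 for ribosomal protein genes, -1.47 for the respiratory chain, -0.78 for lysosomal genes, -0.85 for receptors and bridging proteins and 4.77 for inflammatory cytokines. Those 5 medians kept their sign. Of 41 lists with at least 8 tested members, 6 turned sign: CXC chemokines (-0.26 to 0.42), macrophage identity (-0.26 to 0.16), NRF2 targets (-0.38 to 0.10), osteoclast markers (-0.13 to 0.41), arginine, polyamine and itaconate genes (-0.18 to 0.06) and heat shock and chaperone genes (-0.14 to 0.05). The part of length and gene type in any single change was not tested.

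**Figure D3:**
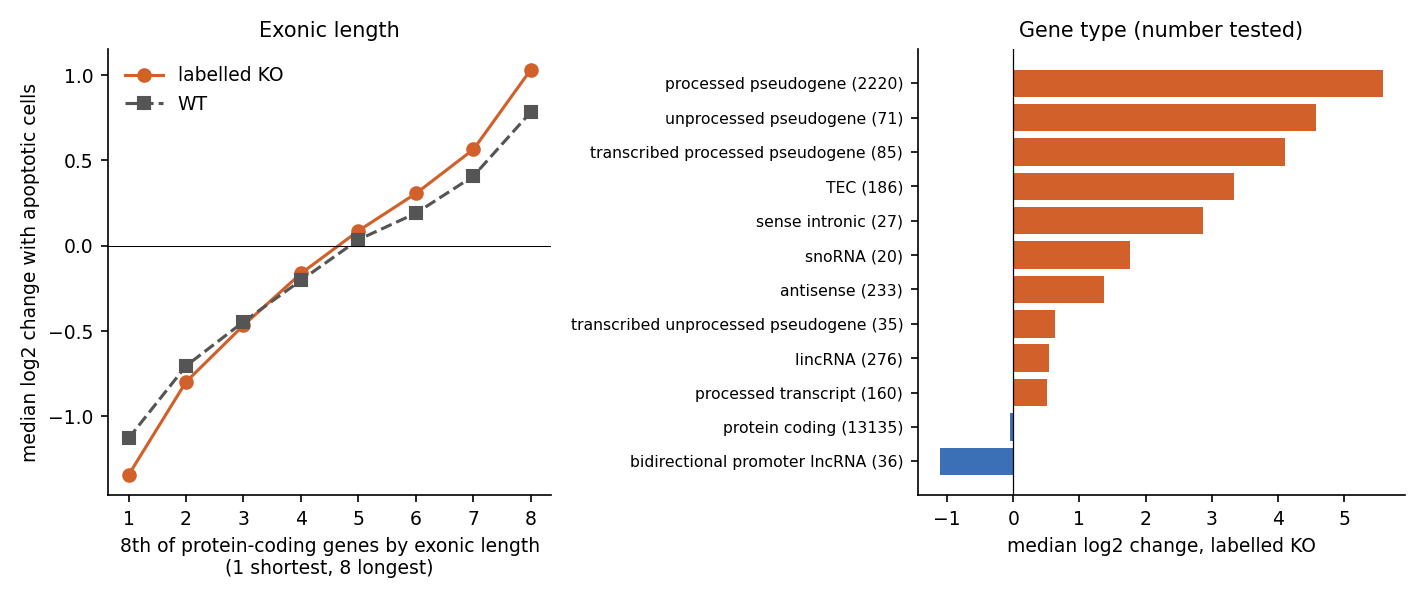
Left, median log2 change with apoptotic cells in 8 groups of protein-coding genes by exonic length, for libraries labelled KO (orange) and WT (grey, dashed); right, median log2 change in the libraries labelled KO by annotated gene type, with the number tested. The medians climb from -1.34 in the shortest group to 1.03 in the longest. Processed pseudogenes that passed the filter on low counts stand highest at 5.58, a value partly fixed by that filter.

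Beside 49.6% of all genes higher and 36.7% lower, 10 of 26 interferon-stimulated genes rose and 14 fell, with a median of -0.44. Irf1, an interferon response factor, rose from 51.2, 35.4 and 34.5 to 259, 268 and 270.4 CPM, while Irf8, a myeloid lineage factor, fell by 2.23 (SE 0.09) and Isg15, a ubiquitin-like modifier, by 1.53 (SE 0.24). Of 13 MHC class II and co-stimulation genes 8 rose and 2 fell. The rises included the co-stimulatory receptor Cd40 (3.28) and the checkpoint ligand Cd274 (2.54), and the falls were the peptide loading genes H2-DMa and H2-DMb1. Of 17 alternative activation genes 9 rose and 4 fell, with Irf4 2.61 higher and Pparg 1.65 lower. Of 16 macrophage identity genes 6 rose and 8 fell: Cd14, the endotoxin co-receptor, rose from 131, 127 and 122 to 922, 861 and 920.2 CPM, while the Fc receptor gene Fcgr1 fell by 2.80.

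Stress lists are set beside the same shares. Of 17 heat shock and chaperone genes 6 rose and 8 fell: Hspa1b, an inducible HSP70, went from 2.10, 1.41 and 2.50 to 41.0, 41.0 and 38.0 CPM, and the collagen chaperone gene Serpinh1 fell by 2.77. Of 19 ATF4 targets 8 rose and 5 fell, of 15 unfolded protein response genes 3 and 8, and of 17 NRF2 targets 8 and 9. With the correction for length and GC content these counts became 14 and 1 of 18 for ATF4 targets, 7 and 8 for the unfolded protein response and 8 and 6 for NRF2 targets. Slc7a11, the cystine importer on 2 of these lists, went from 7.06, 5.42 and 11.2 to 442, 433 and 395 CPM (log2 5.73, SE 0.15). Of 17 iron and heme genes 2 rose and 12 fell, and of 14 hypoxia genes 4 rose and 7 fell, Hif1a being 2.11 higher. Of 33 cell cycle genes 15 rose and 12 fell. Mki67, a marker of cycling cells, rose by 2.76 (SE 0.13), while Pcna, the replication clamp, fell by 1.86 (SE 0.09) and Birc5 by 1.96, so cell cycle markers pointed both ways. Of 23 transport kinesin genes, a list that also holds Kif13b, 15 rose and 3 fell. The related Kif13a went from 14.3, 12.6 and 16.2 to 29.1, 24.7 and 25.6 CPM (0.88, SE 0.11).

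**Figure D4:**
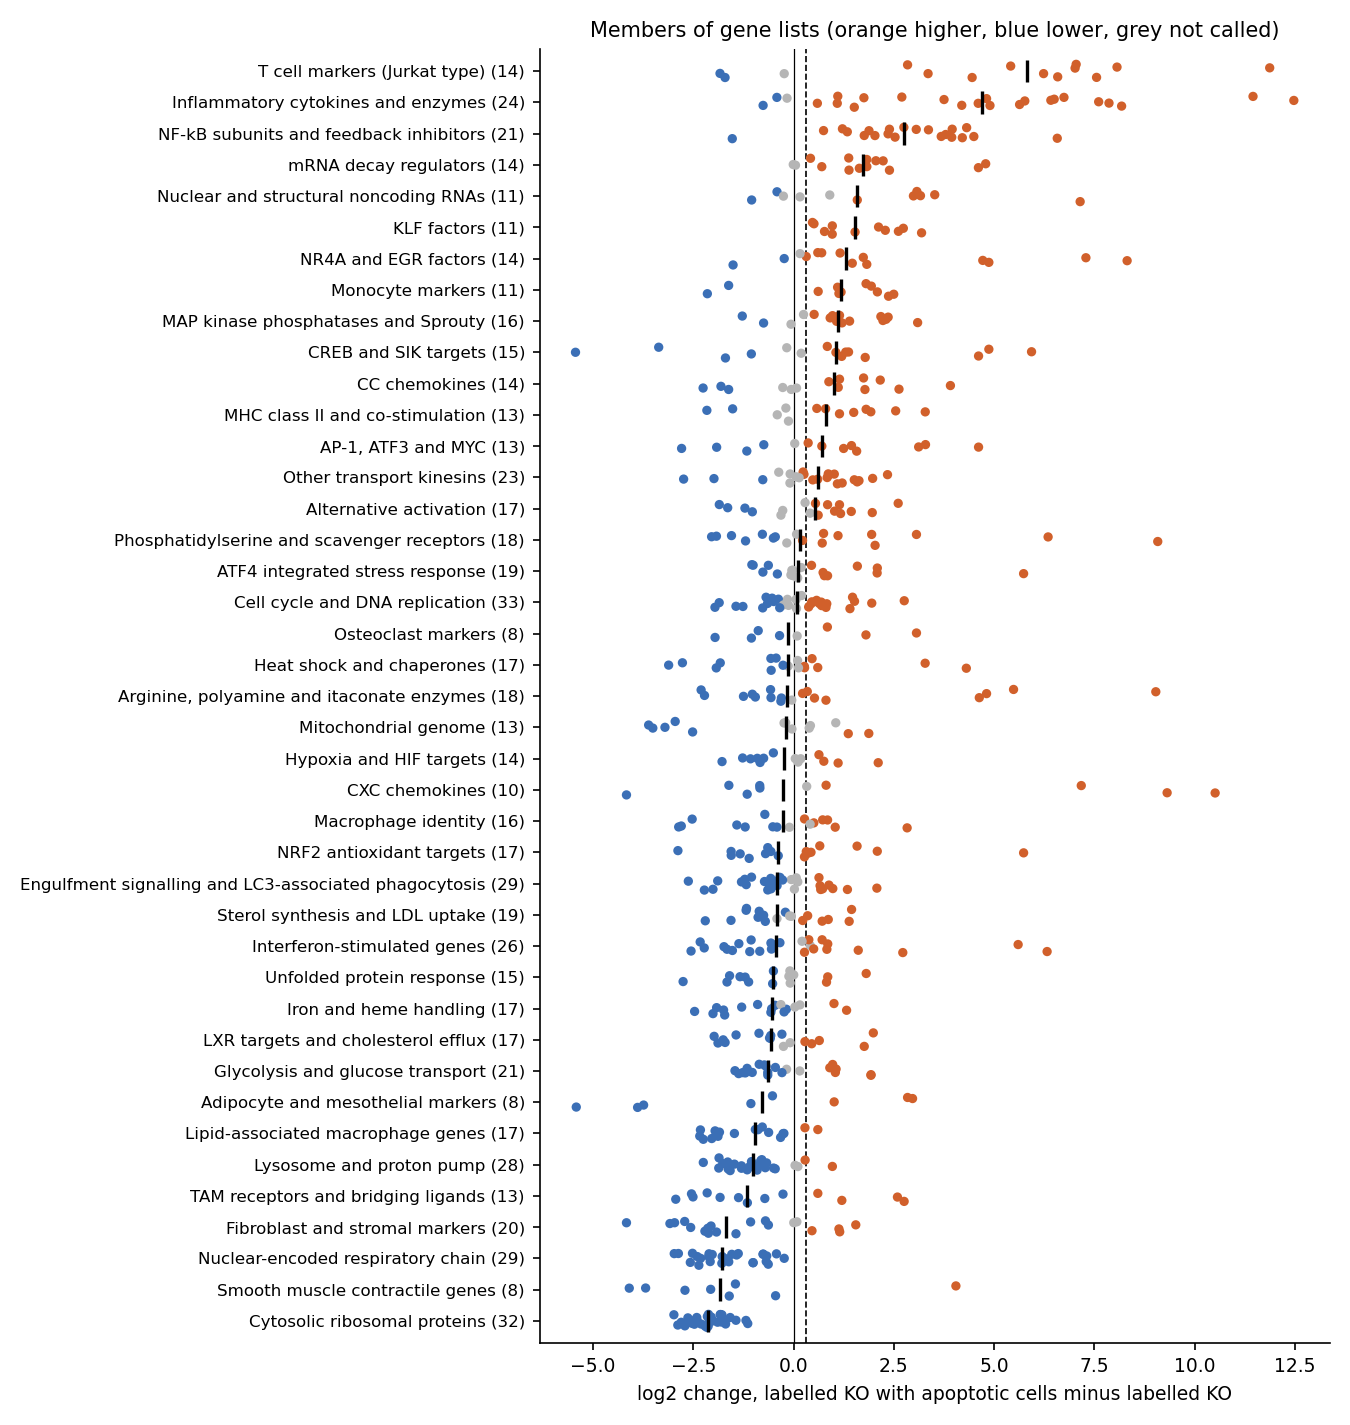
Log2 change with apoptotic cells of each tested member (points) of gene lists with at least 8 tested members, ordered by median (bars); orange points rose, blue points fell and grey points were not called, the solid line is 0 and the dashed line the median of all genes tested, 0.32. Inflammatory cytokines have a median of 4.71, and ribosomal protein genes stand lowest at -2.13. The T cell markers are drawn at 5.82, but most passed the filter only through their level with apoptotic cells. With no filter their median was 3.29, beside 4.76 for inflammatory cytokines and 1.78 for all genes.

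The 15 largest falls among genes of at least 5 CPM were led by Angptl7. Angptl7, a secreted angiopoietin-like protein, went from 70.2, 68.1 and 78.1 to 0.630, 0.521 and 0.780 CPM, 111-fold lower (log2 -6.79, SE 0.16, adjusted p = 1.68e-23). Mgp (matrix Gla protein) fell by 5.69, the growth factor gene Ptn by 5.59, the ubiquitin ligase gene Fbxo32 by 5.56, the stress gene Gadd45g by 5.44 and Rgs2, a regulator of G protein signalling, by 5.44. Others of the 15 were Upk3b (-5.42), Smim1 (-5.04), Igfbp3 (-4.99), Igfbp6 (-4.98), Rab19 (-4.79), Sh2d1b1 (-4.79), Gas1 (-4.74) and Cavin2 (-4.47). Rgs2 was 192, 155 and 162 CPM in the libraries labelled KO and 3.62, 3.59 and 4.47 CPM with apoptotic cells. Markers of stromal cells fell beside these genes. Of 20 fibroblast and stromal genes 14 fell and 4 rose (median -1.68), and of 8 smooth muscle genes 7 fell and 1 rose (Myh11). The shares of all genes were 36.7% lower and 49.6% higher. Sparc, a matrix glycoprotein, went from 558, 517 and 532 to 67.0, 59.9 and 62.3 CPM, and Acta2, smooth muscle actin, from 236, 164 and 222 to 17.4, 15.2 and 15.4 CPM. The 6 fibroblast markers summed to 766 to 991 CPM without and 244 to 263 CPM with apoptotic cells, and the 4 smooth muscle markers to 165 to 238 and 17.4 to 20.5 CPM. The smooth muscle sum was mostly Acta2. Tagln was at 0.204, 0.201 and 0.183 CPM without and 0.210, 0.104 and 0.156 CPM with apoptotic cells. Cnn1 fell from 1.90, 1.07 and 1.83 to 0.105, 0.0521 and 0.104 CPM, and Myh11 rose from 0.0679, 0.268 and 0.061 to 2.73, 2.08 and 1.98 CPM. None of the 10 fibroblast and smooth muscle markers was at 0 in either group, and their part in the other falls was not tested.

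T cell markers were fixed as a list because Jurkat cells are T cells. Of 21 members 14 passed the filter on low counts, most of them only through their level with apoptotic cells, so that counts over them support nothing. The 7 under it were Cd3d, Cd5, Trac, Trbc2, Ptcra, Rag1 and Rag2. With no filter 12 of 21 rose and 2 fell, with a median log2 change of 3.29. In that setting the median over all genes was 1.78, with 12922 of 42317 genes higher and 6684 lower. Lef1, a T cell transcription factor, had no count in the libraries labelled KO and 25, 26.4 and 27.9 CPM with apoptotic cells, at least 135-fold higher against 3 counts per library. Zap70, a T cell receptor kinase, had 0.136, 0.201 and 0 CPM without and 20.6, 21.3 and 23.2 CPM with apoptotic cells. Lck, a kinase of the same pathway, went from 1.43, 0.803 and 0.793 to 22.1, 19.5 and 24.3 CPM. The falls were Lat (-1.84) and Cd28 (-1.71). The 9 defining T cell markers summed to 60.5 to 72.8 CPM without and 72.7 to 78.8 CPM with apoptotic cells, and no marker was at 0 throughout a group. Without apoptotic cells that sum was mostly Lat (56.0, 55.8 and 42.3 CPM) and Cd28 (13.8, 11.2 and 16.8 CPM), which fell. Lck, Zap70, Cd247, Cd3e and Cd3g rose, Cd2 was not called and Cd3d was under the filter. The sum thus joins falls and rises. Among the 15 largest rises of genes of at least 5 CPM, Plet1, Lef1, Il12a, Stmn3, Oprm1 and Myb had no count in any library labelled KO. Against 3 counts per library they were at least 153-, 135-, 101-, 58.7-, 57.4- and 56.3-fold higher. Myo7b and Chrm1 had 1 count there, with ratios of 1116 (95% counting interval 199.9 to 44093) and 783 (140.2 to 30957), and Nr4a3 had 2, at 370 (102 to 3062). Gstp3 completed the 15, 8.46 higher on the log2 scale (SE 0.23). The counts are by mouse gene symbol, and how much of any rise came from RNA of the human cells was not tested.

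Other blood cell markers gave small sums, and counts of them stand beside 49.6% of all genes higher and 36.7% lower. Of 11 monocyte markers tested 9 rose and 2 fell, and the 5 defining ones summed to 17.1 to 19.4 CPM without and 22.5 to 26.6 CPM with apoptotic cells. The 6 neutrophil markers summed to 18.1 to 24.8 and 12.2 to 14.1 CPM, the 5 dendritic cell markers to 3.54 to 4.62 and 9.93 to 10.2 CPM and the 4 B cell markers to 2.94 to 3.73 and 2.91 to 4.32 CPM. Of 8 osteoclast genes 3 rose and 4 fell. Of 8 adipocyte and mesothelial genes 3 rose and 5 fell.

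The same contrast in WT macrophages was used to show where the response of the libraries labelled KO differed. Across 16810 genes the 2 responses had a Pearson correlation of 0.969, given as a description, since both rest on the same pair of tables. The difference between responses was called for 2132 genes, 1269 positive (7.55% of genes tested) and 863 negative (5.13%). Of these, 1439 changed in the same direction by more in the libraries labelled KO, 324 by less, and 369 had opposite signs, of which 74 were called in both. With upper-quartile scaling the split was 998 positive and 1107 negative. Single libraries moved these counts: they were 728 and 681 without KO library 2, 2272 and 2058 without KO library 3, 828 and 528 without the KO library 1 with apoptotic cells and 775 and 470 without its library 2.

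Beside Plet1, which is described last, the widest positive difference among the genes chosen by rule was that of Fpr1. Fpr1, a receptor for bacterial formyl peptides, went from 2.85, 2.01 and 2.99 to 93.6, 81.1 and 76.0 CPM in the libraries labelled KO, and from 10.1 ± 1.14 to 44.2 ± 1.45 CPM in WT (SD, n = 3). It was lower than WT without and higher with apoptotic cells, and the response was 2.86 larger on the log2 scale (adjusted p = 9.77e-11). Fpr2 (2.17), Marco (1.77) and Ms4a4a (2.49) did likewise. F13a1, a coagulation factor subunit of monocytes, rose by 1.1 in the libraries labelled KO and fell by 0.93 in WT, a difference of 2.02. Plet1 had no count in the libraries labelled KO and 0.183 ± 0.0587 CPM in WT without apoptotic cells, a mean below the 0.196 CPM that 3 counts make. With apoptotic cells it had 31.2, 29.8 and 28.6 CPM in the libraries labelled KO and 23.1 ± 1.27 CPM in WT. Its fitted difference rests on a group at 0, is no bound, ranged from 3.04 to 5.16 over the settings tried, and its call was lost without KO libraries 1 and 2 (edgeR adjusted p = 0.122). Among lists, a positive difference was called for 10 of 21 NF-kB subunits and inhibitors, 7 of 14 mRNA decay regulators and 6 of 11 KLF factors. It was also called for 6 of 16 macrophage identity genes and 6 of 13 MHC class II and co-stimulation genes. A negative one was called for 0 in each of these lists. Over all genes tested the shares were 7.55% positive and 5.13% negative. Other lists held both, such as inflammatory cytokines and enzymes (4 positive, 1 negative) and efferocytosis receptors and bridging proteins (2 and 2). Tnf (0.58, adjusted p = 0.00679), Cxcl2 (1.46, adjusted p = 0.000615) and Nfkbiz (0.72, adjusted p = 0.00196) were among the genes with a larger rise, while Il1b (1.32, adjusted p = 0.0668) was not called.

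Negative differences among genes of at least 5 CPM were led by Sfrp5, a secreted WNT antagonist (-2.52), the serotonin receptor gene Htr2b (-2.14), the cadherin gene Cdh3 (-2.09), Mfge8 (-1.78), Srpx (-1.77) and Vsig8 (-1.76). Mfge8 was 2090 ± 194 CPM in WT without and 938 ± 35.3 CPM with apoptotic cells, so that it was higher than WT in the libraries labelled KO without and lower with them. Its fall of 2.94 exceeded that in WT by 1.78 (adjusted p = 2.10e-10). Among lists, a negative difference was called for 13 of 20 fibroblast and stromal and 5 of 8 smooth muscle genes. It was also called for 13 of 32 ribosomal protein and 13 of 33 cell cycle genes. A positive one was called for 0 in each of these lists. Counts of differences by list, here and above, come from the main fit alone. Ribosomal protein genes took 7.57, 7.97 and 6.196% of counts in KO libraries 1 to 3. In WT without apoptotic cells they took 5.95 to 6.17%, near KO library 3. The Rpl13 difference of -0.40 became -0.12 without KO libraries 1 and 2 and -0.17 with the length and GC correction. The fibroblast marker sum was 560 to 695 CPM in WT without apoptotic cells and 363 to 401 CPM with them, so the libraries labelled KO started higher and ended lower. Mertk fell by 0.72 in the libraries labelled KO and by 0.73 in WT, a difference of 0.01 (SE 0.16, adjusted p = 1.00). Kif13b itself rose by 0.74 more in the libraries labelled KO (adjusted p = 0.000815).

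**Figure D5:**
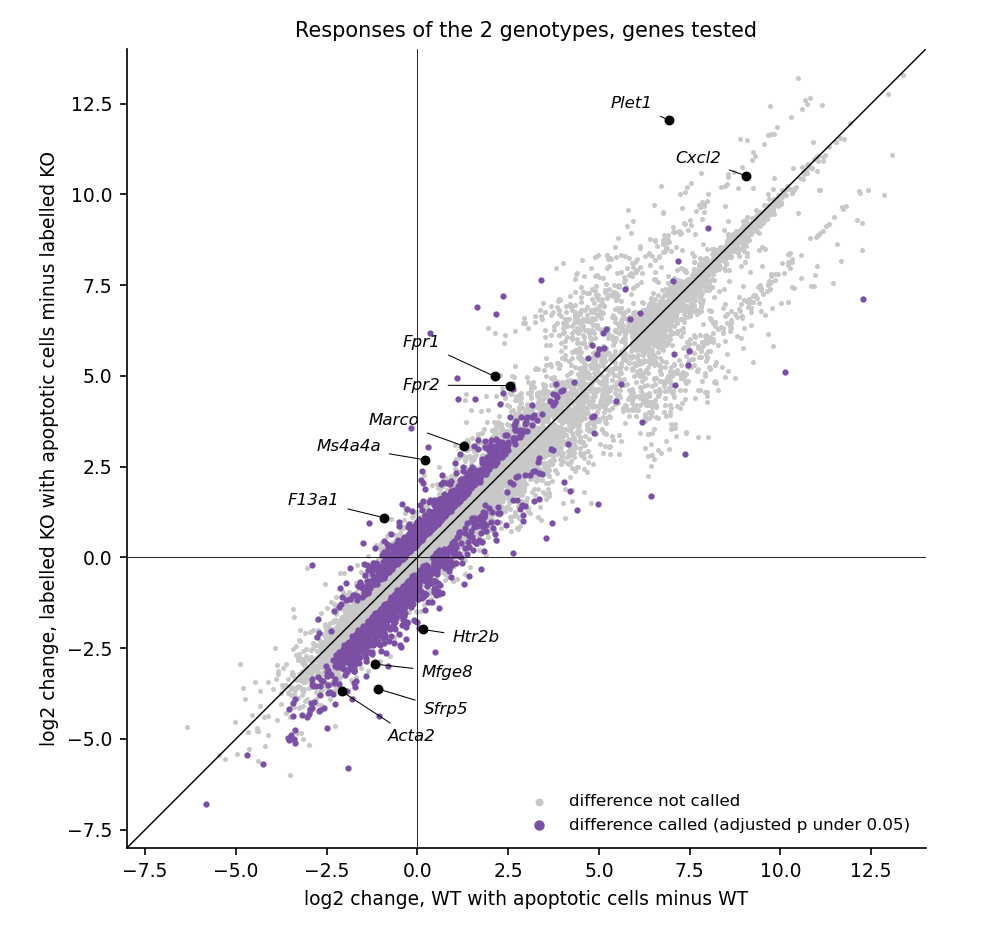
Log2 change with apoptotic cells in the libraries labelled KO (vertical) against that in WT (horizontal) for the genes tested, with the line of equal response; purple points have a called difference, and black points are the genes labelled. Plet1, Cxcl2, Fpr1, Fpr2, Ms4a4a, Marco and F13a1 lie above the line, and Mfge8, Sfrp5, Htr2b and Acta2 below it.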

How the data were processed

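Polyadenylated RNA of mouse bone marrow-derived macrophages was sequenced in 12 libraries, 4 groups of 3. The authors deposited raw counts per gene symbol, 1 table for each condition; per the submitters' processing notes they used fastp, HISAT2 2.0.5 and DESeq2 1.20.0 with mm10, and the counter, the annotation and strandedness were not given in the sources used here. The tables shared 54582 symbols; 375 and 785 stood in 1 table alone and were not used.

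All 12 libraries were fitted jointly in R 4.3.3 with edgeR 4.0.16 (filterByExpr, TMM scaling, robust quasi-likelihood test), with p-values adjusted by Benjamini-Hochberg over 16810 genes; calls are at an adjusted p under 0.05. CPM are TMM-scaled. Alternatives were DESeq2 1.42.0 and its size factors, upper-quartile scaling, limma 3.58.1 voom, other filters, a replicate block, a length and GC correction (mgcv 1.9.3) and leaving out each library. The fit was also run on simulated data, drawn with the same spread for every library. The coefficient of variation here was 0.141 in the libraries labelled KO and 0.0269 in those with apoptotic cells. That run therefore cannot show how the p-values hold under unequal spread.

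Genes named by rule were Kif13b and Mertk, the 15 largest rises and 15 largest falls, 6 differences in each direction (at least 5 CPM) and 4 per gene list; other genes were named after their values were seen. Members and lists were chosen with earlier results of these data known. Of 810 list members 710 were tested, 61 were under the filter and 39, not in both tables, were not analysed here. Some genes that the rule names are not reported here. Coordinates are GRCm38. Intervals and lower bounds cover counting error only.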

Additional observations from a re-analysis of the deposited data

Results flagged for a closer look

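Of 206 genes named by rule, 76 had a response to apoptotic cells in the libraries labelled KO that differed from that in WT by the interaction term of the edgeR quasi-likelihood fit (adjusted p under 0.05 over all 16810 genes, n = 3 libraries in each of 4 groups). The values below are log2 differences, the response of the libraries labelled KO minus that of WT, and 44 were positive and 32 negative; not all of the negative ones are listed.

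The difference was positive, from the widest down, for Plet1 (5.12), Fpr1 (2.86), Ms4a4a (2.49), Fpr2 (2.17), F13a1 (2.02), Arg2 (1.99), Marco (1.77), Cxcl2 (1.46) and Hp (1.39). Next in size came Mir17hg (1.31), Olr1 (1.09), Ptgs2 (0.99), Zc3h12c (0.96), Xist (0.80), Hif1a (0.80), Itga4 (0.78), Slc7a2 (0.77) and Itgav (0.76). Smaller positive differences were those of Traf1 (0.74), Kif13b (0.74), Slc7a11 (0.73), Nfkbiz (0.72), Cybb (0.71), Klf3 (0.70), Spred1 (0.67), Ifi205 (0.66) and Cd14 (0.66). Positive differences also held for Irf4 (0.65), Cd40 (0.63), Fosl2 (0.62), Zfp36 (0.62), Nlrp3 (0.61), Thbs1 (0.58), Tnf (0.58), Csf3r (0.54) and Kif1b (0.53). The list of positive differences ended with Tnfaip3 (0.53), Klf7 (0.53), Klf13 (0.50), Nfkbid (0.47), Nfatc1 (0.46), Cd274 (0.46), Ern1 (0.42) and Txnrd1 (0.37).

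The difference was negative, from the widest up, for Sfrp5 (-2.52), Ltf (-2.18), Htr2b (-2.14), Cdh3 (-2.09), Mfge8 (-1.78), Srpx (-1.77), Vsig8 (-1.76) and Acta2 (-1.61). Then followed Igfbp3 (-1.59), Smim1 (-1.51), Mgp (-1.45), Igfbp6 (-1.40), Gas1 (-1.38), Serpinh1 (-1.35), Ctsk (-1.33), Cxcl12 (-1.22) and Sparc (-1.19). Smaller negative differences were those of Tpm2 (-1.15), Steap4 (-1.04), Phgdh (-0.98), Angptl7 (-0.97), Acp5 (-0.95), Des (-0.89), Ctsl (-0.87), Birc5 (-0.87) and Col6a1 (-0.83). The list of negative differences ended with Fscn1 (-0.83), Gadd45g (-0.76), Tpm1 (-0.69), Steap3 (-0.63) and Rpl13 (-0.40).

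Over all genes tested 12.7% had a called difference. The 206 were picked by list, by size of change and, for 6 in each direction, by the difference itself, so the count of 76 is partly fixed by that choice. The value of Plet1 rests on a group with no count and is no bound.

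Of the 75 differences listed, 54 were called in every setting in which the gene was tested and 21 lost their call in at least 1. Txnrd1 and Ifi205 kept it in 6 of 16 settings, Irf4 and Rpl13 in 8, Ern1 and Nfatc1 in 9, Klf7 and Smim1 in 10, Olr1 in 11 and Ptgs2 and Slc7a11 in 12. Angptl7 and Klf13 kept it in 13 of 16, and Cd274, Fosl2, Gadd45g, Kif1b, Nlrp3, Plet1 and Thbs1 in 15. Mir17hg kept it in 13 of 14. With the correction for length and GC content the difference was 0.15 for Ifi205 (edgeR adjusted p = 0.760), -0.17 for Rpl13 (0.251), -0.32 for Gadd45g (0.277) and 0.32 for Slc7a11 (0.168). The replicate block ended the call of Txnrd1 (0.37, edgeR adjusted p = 0.0573). Without KO libraries 1 and 2 Ptgs2 was at 0.21 (0.822), Olr1 at 0.38 (0.634) and Irf4 at 0.32 (0.507).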

How the results depend on the processing

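Every fit kept a wide response in both directions, and counts moved most with which genes were tested. With no filter on low counts 12922 genes were higher, 10982 of them by 2-fold or more. With a mean of at least 10 CPM, 3636 were higher and 3502 lower, 2003 and 1793 of them by 2-fold or more, and with protein-coding genes alone 3810 were higher by 2-fold or more; both settings test fewer genes. DESeq2 called 8551 higher and 5704 lower, and shifted the median response by 0.09 on the log2 scale. The correction for length and GC content gave 7795 and 6268 and moved 23 of 90 counts over gene lists by more than 1.5 times. Of 12670 genes called both with it and in the main fit, 12072 kept their direction. In each other setting all such genes kept it. Kcnq1ot1 was among the genes turned, to -0.997, and the cause was not tested. Counts of genes whose responses differed were the least stable: leaving out each library of the 6 in turn gave 728 to 2272 positive and 470 to 2058 negative. Without KO libraries 1 and 2 together, an alternative chosen after seeing the data, they were 527 and 516, and Itga2b, not called before, turned to -0.0425. The cause was not tested. The NF-kB motif share of early response promoters went from 2.04% to 0% with 100 bases before the start, a shorter window.

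Replicate numbers did not pair the libraries: deviations of same-numbered libraries correlated at -0.05, -0.14 and -0.16 over 8376 genes. A fit with the replicate number as a block called 8301 higher and 6095 lower, and 1328 positive and 949 negative differences. Depth limits genes with no count in the libraries labelled KO, whose fold is a lower bound set by 3 counts per library.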
